A study of Mus musculus with 70 samples.

Results

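The TRβ sites described here were the peaks of untreated pituitary that overlapped, by at least 1 bp, a peak of untreated cerebral cortex and did not touch a region of T3-regulated open chromatin. They numbered 810 of the 8051 pituitary peaks and met 793 of the 5164 cortex peaks. Sites were found by chromatin-affinity purification and sequencing (ChAP-seq) in mice called HAB;BirA, homozygous for a tagged TRβ allele (*Thrb*HAB/HAB) and for the biotin ligase BirA that labels the tag (*Rosa26*BirA/BirA), against BirA mice that carry the ligase (*Rosa26*BirA/BirA) without the tag. Each genotype had 3 libraries per tissue from untreated males of 2 to 4 months. A pituitary library was a pool of about 12 glands and a cortex library came from 2 mice. The labels of the untreated BirA control libraries carry the HAB;BirA genotype, and these libraries were grouped by their titles.

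Open chromatin was measured by ATAC-seq in nuclei purified from the anterior pituitary by a Sun1-GFP tag (*Rosa26*Sun1-GFP), switched on by Cre from the *Thrb* b2 promoter, so that only nuclei of that lineage entered the list of 1776 T3-regulated peaks. It compared 4 hypothyroid with 4 hyperthyroid libraries, from males of 2 to 4 months. RNA-seq covered wild-type and *Thrb*-KO (*Thrb*-/-) pituitaries, both labelled C57BL/6J, from males of 2 to 4 months, with 3 pooled pituitaries per library. Hypothyroid mice drank 0.05% methimazole (MMI) and 1% KClO4 for 4 or 5 weeks, and hyperthyroid mice drank the same with 0.5 μg/ml T3 added in the final 1 week. All RNA groups therefore received MMI and perchlorate. Each wild-type group had 4 libraries and each *Thrb*-KO group 5. The ChAP-seq mice were euthyroid, so that binding and RNA were not measured in the same animals or hormonal states. All labels give the strain as C57BL/6J, while the methods describe the HAB and BirA lines as mixtures with 129 and FVB/N.

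TRβ is a nuclear receptor that binds DNA with and without its ligand T3, usually beside the retinoid X receptor RXR, and recruits corepressors when empty and coactivators when T3 is bound. Its classical element is a direct repeat of the hexamer AGGTCA with a spacer of 4 bases (DR4). In the pituitary the TRβ2 isoform mediates feedback of T3 on thyrotropin, while TRα is the main receptor of the cortex. Promoters of widely expressed genes often lie in CpG islands, stretches rich in G, C and CpG that are open in most cell types.

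Sequences of 4 sites are printed because they show the different kinds of DNA found among the shared sites. Each is a 300 base window of mm9 (NCBIM37), read on the plus strand. The sites at *Dot1l*, which held the most pituitary reads, and at 2410080I02Rik, a non-coding transcript upstream of *Klf9*, stand for GC-rich starts of transcription. Capitals mark the GC box (GGGCGG, or CCGCCC on the other strand), the element of Sp and Krüppel-like factors. The *Chd3* and *Mir7b* sites stand for sites with a DR4 like repeat, and capitals mark the 16 bases of the repeat. The *Dot1l* window ends on the base before the annotated gene.
Dot1l, chr10:80217651-80217950: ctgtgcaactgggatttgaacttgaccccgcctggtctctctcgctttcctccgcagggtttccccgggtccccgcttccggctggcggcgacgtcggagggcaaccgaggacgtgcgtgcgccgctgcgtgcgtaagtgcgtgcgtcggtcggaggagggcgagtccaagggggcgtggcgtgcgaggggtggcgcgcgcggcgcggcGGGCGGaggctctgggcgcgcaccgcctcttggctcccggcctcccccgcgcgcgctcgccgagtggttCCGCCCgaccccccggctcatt
2410080I02Rik, chr19:23209351-23209650: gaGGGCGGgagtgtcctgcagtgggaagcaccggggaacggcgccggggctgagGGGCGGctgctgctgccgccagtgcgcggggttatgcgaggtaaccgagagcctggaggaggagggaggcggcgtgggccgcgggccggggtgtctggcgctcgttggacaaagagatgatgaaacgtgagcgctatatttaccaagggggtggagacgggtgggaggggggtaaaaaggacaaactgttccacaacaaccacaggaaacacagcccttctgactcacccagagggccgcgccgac
Chd3, chr11:69178576-69178875: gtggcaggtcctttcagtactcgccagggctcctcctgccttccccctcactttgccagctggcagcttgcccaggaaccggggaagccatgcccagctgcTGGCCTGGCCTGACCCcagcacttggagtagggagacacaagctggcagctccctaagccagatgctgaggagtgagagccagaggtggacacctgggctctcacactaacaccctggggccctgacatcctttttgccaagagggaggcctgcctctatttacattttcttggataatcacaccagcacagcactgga
Site near Mir7b, chr17:56373201-56373500: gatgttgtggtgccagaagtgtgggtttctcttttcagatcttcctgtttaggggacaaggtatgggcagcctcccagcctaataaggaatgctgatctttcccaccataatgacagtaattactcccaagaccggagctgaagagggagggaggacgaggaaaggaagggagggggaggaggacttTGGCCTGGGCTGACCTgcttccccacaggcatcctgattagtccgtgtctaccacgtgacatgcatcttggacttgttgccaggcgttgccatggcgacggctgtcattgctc
Against 2 copies of AGGTCA with 4 free bases between them, counted from 1 at the 5′ end of the repeat on its own strand, the repeat at *Chd3* carried A1G and T14C, and that near *Mir7b* T14C only. Both repeats lie on the minus strand. These matches describe letters and do not show where the receptor sat within a peak.

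The shared sites had higher median reads than all peaks of either tissue, though 440 of the 810 had only 10 to 19 reads in the tissue with fewer. Their median was 24 HAB;BirA reads in the pituitary (10 to 186), against 16 in the 6369 pituitary-only peaks outside T3-regulated chromatin and 18 over all 8051. The cortex peaks at these sites also had a median of 24 reads (8 to 366), against 13 over all cortex peaks. The authors' scaled fold over BirA had a median of 10.4 (1.74 to 237) in the pituitary and 6.39 (1.90 to 153) in the cortex. Control reads were few at most sites. They were 3 or fewer in 568 pituitary peaks (70.1%), with none in 96, and 3 or fewer in 429 of the 793 cortex peaks (54.1%). Peaks were called on merged libraries, so single sites carry no replicate error, and the counts of the 2 tissues were not scaled to each other. Which cortex libraries entered the merged cortex count was not settled here.

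The overlap was usually close. It had a median of 300 bp, peak centres lay a median of 100 bp apart, and in 662 sites (81.7%) they lay within 200 bp. In all, 805 sites met a single cortex peak and 5 met 2, while 20 cortex peaks spanned several sites. The 10 sites with the least overlap shared 50 bp with a cortex peak, among them those nearest *Zfp768* and *Malt1*. Just outside the rule, 14 pituitary peaks ended within 50 bp of a cortex peak, the nearest being at *Tbc1d8*, *Acsl1* and *Ufsp1*. Likewise 6 sites lay within 1 kb of a T3-regulated ATAC peak, the nearest, upstream of *Klf9*, at 121 bp.

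Read counts of the 2 tissues lay within 2-fold of each other at 573 sites (70.7%). The log2 ratio of pituitary to cortex reads had a median of 0.13 and an SD of 1.01 across sites. Across the 810 sites, which are not independent replicates and share libraries, Spearman's rho was 0.31 for reads and 0.02 for the fold over control. At 31 sites the pituitary held over 4 times the reads of the cortex, and at 10 sites the reverse held. The site 8811 bp from *Mir7b* held 114 pituitary and 21 cortex reads. The site 6278 bp upstream of *Ky*, a muscle peptidase gene, held 65 cortex reads and 10 pituitary reads, the lowest pituitary count of any shared site. The paper shows a peak near *Ky* as one found in cortex and absent from pituitary. Whether that peak is this site was not settled here.

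**Figure D1:**
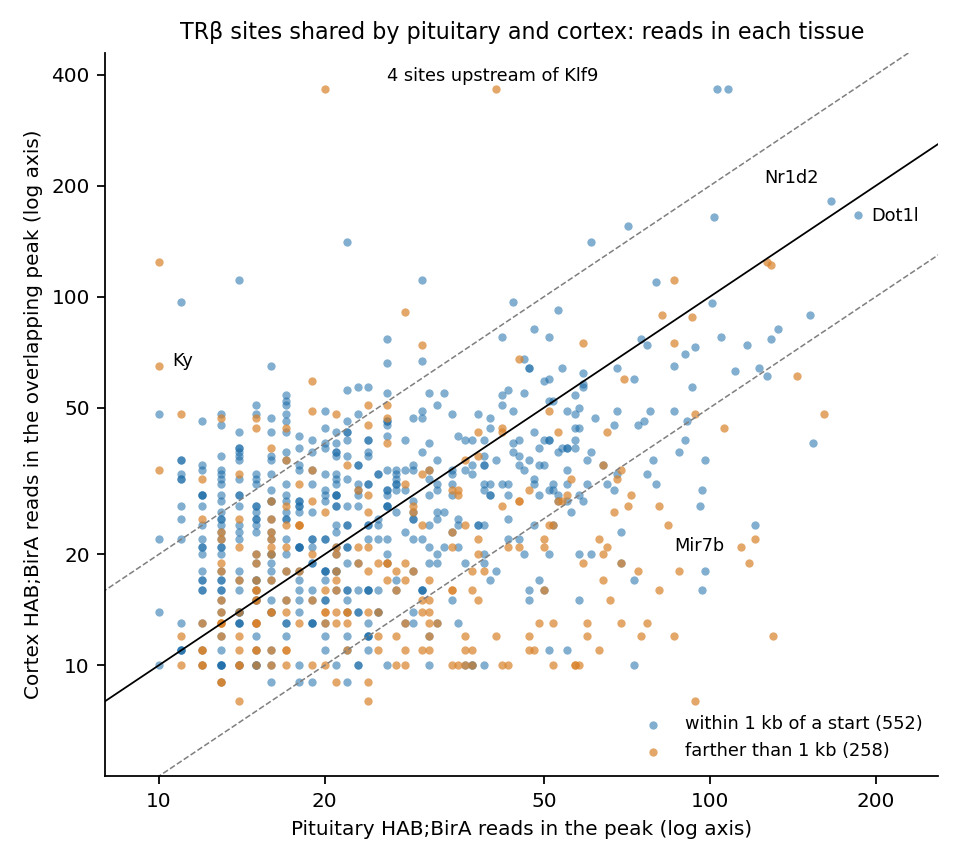
HAB;BirA reads at each of the 810 shared sites in the pituitary (x axis) and in the overlapping cortex peak (y axis), both on log axes, with sites within 1 kb of a transcription start in blue and the others in orange. The solid line marks equal reads and the dashed lines a 2-fold difference, and 573 sites lie between the dashed lines.

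The 10 sites with the most reads in both tissues included 2 of the sites upstream of *Klf9*, given below, and 8 others. The site over the start of *Dot1l*, the histone H3 lysine 79 methyltransferase (chr10:80217551-80218050), held 186 pituitary and 167 cortex reads with 3 and 9 control reads. The site in *Nr1d2*, the clock repressor REV-ERBβ (chr14:19070551-19071150, 395 bp from the start), held 166 and 182 reads with 5 and 30 control reads. *Suv420h2*, a histone H4 lysine 20 methyltransferase gene, had 152 and 89 reads over its start. Intergenic sites lay 1276 bp from *Eef2*, which encodes elongation factor 2, with 127 and 124 reads, and 3924 bp from *Kdm6b*, a histone H3 lysine 27 demethylase gene, with 129 and 122 reads. At *Tpt1*, a widely expressed growth-related gene, the counts were 101 and 96. A site 33373 bp from *Pfkfb3*, a glycolytic regulator gene, held 93 and 88 reads. The site at the pseudogene *Pisd-ps2* differed from these, since its 102 and 165 reads stood against 49 and 74 control reads, a fold of 1.74 and 1.90.

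Upstream of *Klf9*, a Krüppel-like factor gene, 4 sites with 41, 108, 103 and 20 pituitary reads fell within a single cortex peak of 3050 bp with 366 reads and 19 control reads (chr19:23208201-23211250). They lie at the start of 2410080I02Rik, and the site with 108 reads ends 5816 bp from the *Klf9* body. The 5 sites with the highest folds over control in both tissues had 15 to 66 pituitary reads, with no control read in 4 and 1 in the fifth. They were at *Apln*, the gene of the peptide hormone apelin (21 pituitary and 16 cortex reads), in introns of *Arfip1* (17 and 15), *Afap1* (15 and 15) and *Gnaq* (15 and 13), and 2695 bp from *Ccdc86* (66 reads with 1 in the control, and 15).

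Most shared sites were at starts of transcription. In all, 552 of 810 (68.1%, 95% Wilson interval 64.9 to 71.3%) lay within 1 kb of an annotated start, against 23.1% (22.1 to 24.1%) of pituitary-only peaks and 37.4% (36.0 to 38.9%) of cortex-only peaks. Of the 84 shared peaks that do overlap a T3-regulated ATAC peak, 8 did so (9.52%, 4.91 to 17.7%). Such intervals cover counting error only. A start was covered at 339 sites (41.9%), 213 more lay within 1 kb, 128 (15.8%) were intronic, 119 (14.7%) intergenic, and 11 lay in other exons.
The excess at starts was found at each read number. Among sites with 10 to 14 pituitary reads 72.3% were within 1 kb of a start, against 21.4% of pituitary-only peaks with as many reads, and among those with 50 or more the shares were 63.1% and 16.7%. Of the 552 start-proximal sites 339 covered a start and 213 lay beside one, with a median centre 17 bp upstream and 75.4% of centres within 300 bp, against 61.4% for start-proximal pituitary-only peaks. At 109 of them (19.7%) starts on both strands lay nearby, against 14.3% of start-proximal pituitary-only and 16.2% of cortex-only peaks. With at most 3 control reads in both tissues, 324 sites were left and 55.9% of them were at starts.

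The DNA at the sites was rich in GC. The median GC content was 62.4%, against 45.5% in regions of the same length 10 kb away. It was 50.7% in pituitary-only and 55.1% in cortex-only peaks. A base composition like that of CpG islands, meaning a GC content of at least 50% and an observed to expected CpG ratio of at least 0.6 in the 300 base window, was found at 488 sites (60.2%), against 14.3% of pituitary-only and 30.4% of cortex-only peaks. Within 1 kb of a start the shares were 78.1% of shared, 55.1% of pituitary-only and 71.6% of cortex-only peaks. Farther away they were 22.1%, 2.10% and 5.81%. Only 1 of the 84 shared peaks in T3-regulated chromatin had this composition (1.19%). Chromosome 11 had the most sites, 94, or 16.1% of its pituitary peaks, and the shares ranged from 6.17% on chromosome 6 to 17.5% on the X chromosome, which had 11 sites.

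**Figure D2:**
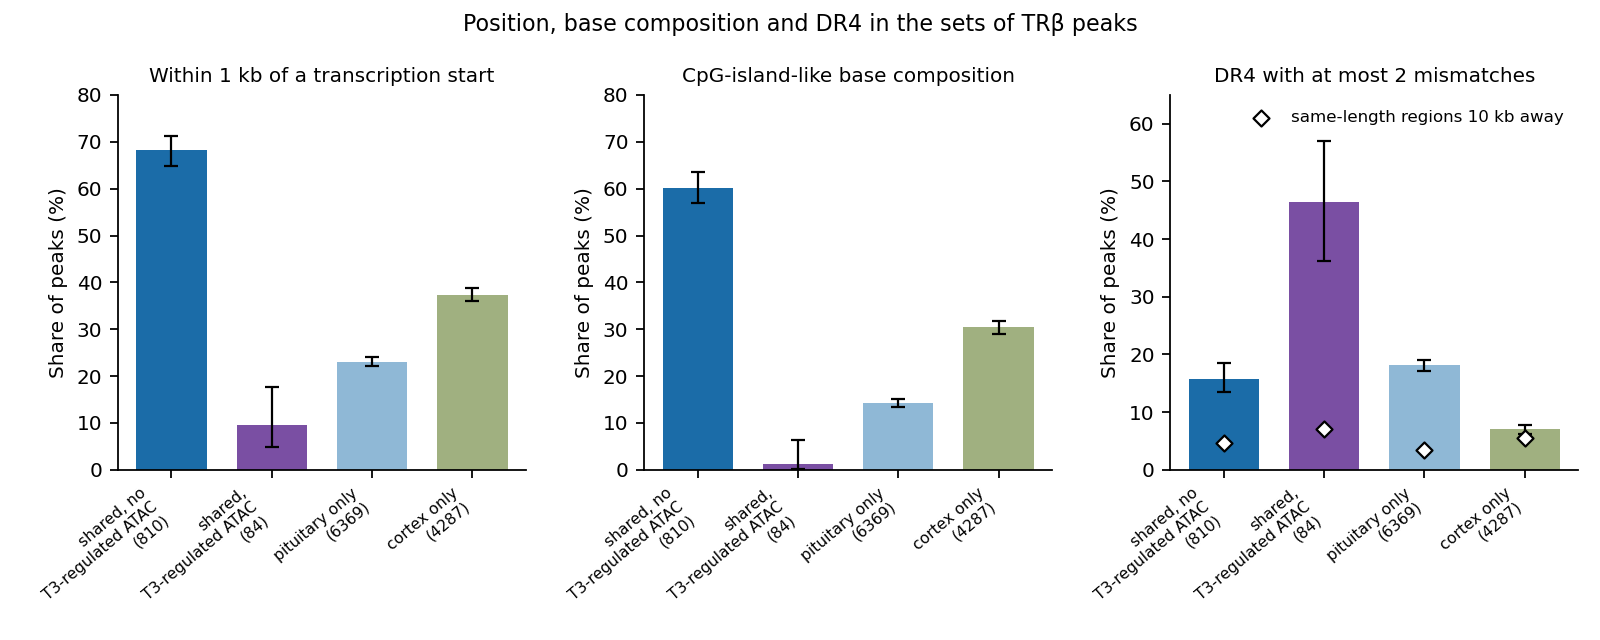
Share of peaks (y axes, %) within 1 kb of a transcription start, with CpG-island-like base composition, and with a DR4, for the 4 sets of TRβ peaks on the x axes with their numbers. Bars end in 95% Wilson intervals and diamonds give regions of the same length 10 kb away, with the shared sites outside T3-regulated chromatin highest in the first 2 panels at 68.1% and 60.2%, and at 15.8% in the DR4 panel.

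Repeats of the receptor hexamer set spacer 4 apart from other spacers. A DR4 with at most 2 mismatches over its 12 hexamer bases, on either strand, was in 128 sites (15.8%, 13.5 to 18.5%) against 4.69% of same-length regions 10 kb away. The share was 18.1% in pituitary-only peaks, 7.02% in cortex-only peaks (5.60% in their own regions 10 kb away), and 46.4% (36.2 to 57.0%) in the 84 shared peaks in T3-regulated chromatin. In the 300 base windows the DR4 share of shared sites was 14.7% (4.07% at 10 kb), while spacers of 0 to 3 and 5 to 8 bases gave 1.98 to 4.69%. Inverted repeats without spacer (AGGTCATGACCT) were in 1.36% (0.988% at 10 kb) and everted repeats with 6 bases (TGACCTNNNNNNAGGTCA) in 2.35% (1.48%), with the same 2 mismatches allowed.
The DR4 was found near starts and away from them, at 13.2% of the 552 windows near starts and 17.8% of the 258 others, against 3.62% and 5.04% at 10 kb. Near starts it was 12.0% of pituitary-only and 2.37% of cortex-only windows. Away from starts it was 19.2% and 5.85%. Sites with more pituitary reads held it more often, at 10.8% of shared sites with 10 to 14 reads and 21.9% of those with 50 or more, against 11.4% and 36.2% of pituitary-only peaks. With at most 1 mismatch 14 sites had a DR4, at the starts of *Rcc2*, *Abhd11*, *Yif1b*, *Dhx8* and *Pmm2*, within 1 kb of starts of *Orai1*, *Rilp*, *Mirlet7c-2* and Gm16299, in introns of *Zmynd8*, *Accn1* and *Galnt14*, in a non-coding exon at *Bcor*, and near *Mir7b*.

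**Figure D3:**
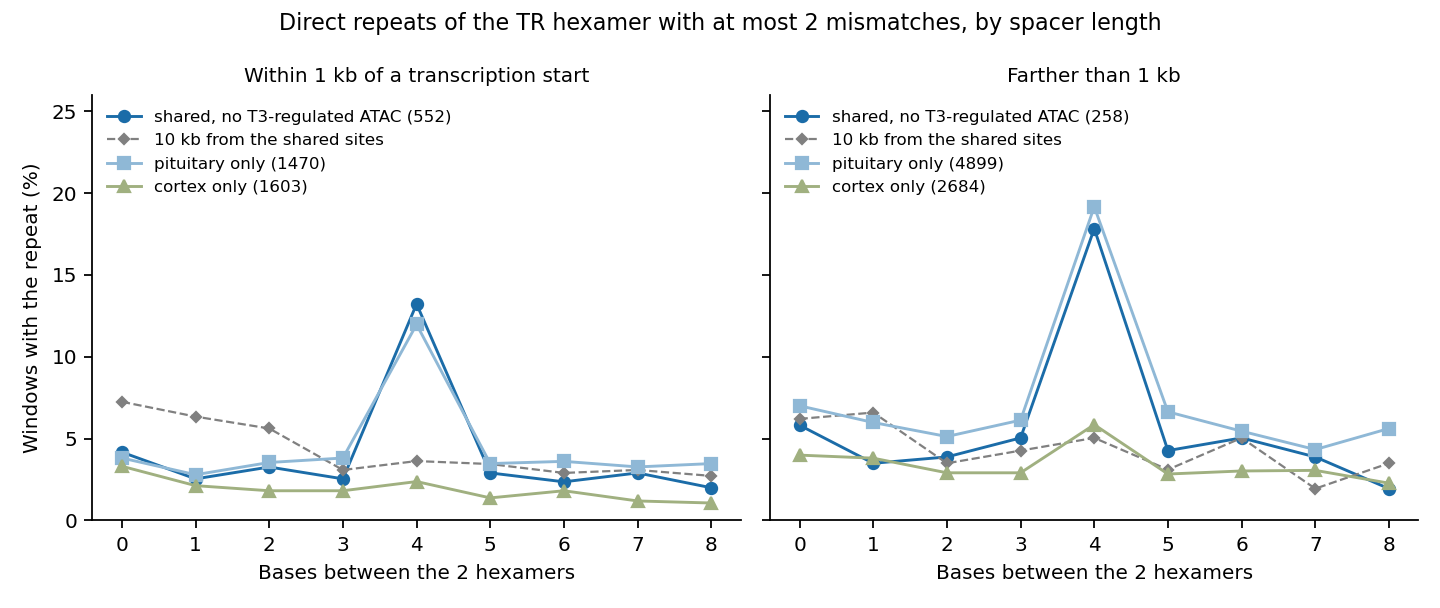
Share of 300 base windows (y axis, %) that hold a direct repeat of the receptor hexamer with at most 2 mismatches, by the number of bases between the hexamers (x axis), for windows within 1 kb of a transcription start (left) and farther away (right). Spacer 4 stands above the others in shared and pituitary-only peaks, at 13.2% and 17.8% of the shared sites, and the dashed line gives windows 10 kb from the shared sites.

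Of the promoter elements searched, the GC box, marked in the *Dot1l* and 2410080I02Rik windows, was the most frequent. It was in 55.3% of shared windows (4.81% at 10 kb), in 66.3% near starts and 31.8% elsewhere. Pituitary-only windows gave 49.5% and 7.39%, and cortex-only windows 61.9% and 11.7%. In all shared windows the ETS element CCGGAAGT was in 4.20% (0.247% at 10 kb), the NRF1 core GCGCATGC in 4.57% (1.11%), the cyclic AMP element TGACGTCA in 2.10% (0.494%) and the E-box CACGTG in 10.5% (5.19%). The CCAAT box was in 28.4% (30.1%) and the YY1 element CCATCTT in 4.20% (7.65%), both below the share at 10 kb. The single hexamer AGGTCA was in 22.2% (19.0%), against 32.5% of pituitary-only and 14.0% of cortex-only windows. All were searched on both strands, and the single hexamer lies within the repeats above.

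RNA-seq was used to ask how genes beside the shared sites respond to T3 with and without TRβ. The libraries held 21453548 to 55273749 recovered reads. Replicates 1 and 2 of every group formed a set apart from replicates 3 to 5. The methods name 2 library kits, without giving the kit of each library. Hyperthyroid wild-type replicate 3 stood apart, with a TMM scale of 0.832 where the other libraries had 0.967 to 1.05. The tissue showed its defining markers, with *Gh* at 48332 to 159094 CPM in every library, and the cortical neuron markers *Neurod6* and *Gad1* at 0 to 0.0982 and 0.0640 to 0.653 CPM. The remaining cortical neuron marker, *Slc17a7*, was at 4.55 to 16.8 CPM. Of the marker lists, 4 of 7 endocrine, 1 of 2 tested stem and folliculostellate, 2 of 3 stromal (both lower) and 1 cortical neuron marker (*Slc17a7*) were called by limma in wild type, and none of 3 endothelial, 4 blood or 3 tested posterior lobe markers. Of these 10 the 3 posterior lobe markers alone had an unadjusted p under 0.05, and *Nkx2-1* was called higher by edgeR and DESeq2 and *Oxt* by edgeR. The summed endocrine level was 69478 to 98077 CPM in hypothyroid and 107332 to 224155 in hyperthyroid wild type, and 76754 to 93348 and 109055 to 136296 in *Thrb*-KO. The summed stromal level was 155 to 175 and 131 to 193 in wild type, and 166 to 183 and 150.0 to 187 in *Thrb*-KO. The other sums moved in wild type from 37.2 to 58.1 to 65.9 to 75.1 CPM (blood), 99.2 to 158 to 59.5 to 142 (endothelial), 8.59 to 10.8 to 12.1 to 31.5 (posterior lobe), 23.3 to 27.6 to 30.5 to 41.8 (stem) and 4.87 to 7.53 to 10.7 to 17.1 (cortical neuron). Their part in the results was not tested. In such bulk RNA, fewer cells of a type and less RNA per cell cannot be told apart.

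*Thrb* RNA was present in all groups, so that its level does not check the *Thrb*-KO label. It was 239, 242, 249 and 297 CPM in hypothyroid and 124, 117, 72.4 and 103 CPM in hyperthyroid wild type, and 228 to 301 CPM in all *Thrb*-KO libraries. In wild type the groups did not overlap and *Thrb* fell by 1.32 ± 0.14 (log2(CPM + 1), SE, limma, adjusted p = 1.27e-06). No shared site lay within 20 kb of *Thrb*. *Thra*, the gene of TRα, had a site with 35 pituitary and 29 cortex reads 4731 bp from its body. Its CPM was 64.1 to 87.5 and 46.8 to 61.8 in hypothyroid and hyperthyroid wild type, a difference of −0.44 ± 0.10 (adjusted p = 0.00305) that was under 1.5-fold.

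Genes beside shared sites rose more often than they fell with T3. Calls were made by limma on log2(CPM + 1) at a Benjamini-Hochberg adjusted p under 0.05 over all 13145 genes tested and a change of at least 1.5-fold. Of 1323 genes with a shared site within 20 kb of the gene body, 1134 passed the filter on low values (85.7%, against 57.6% of all genes). In wild type 84 of them rose (7.41%, against 3.87 percent of all genes tested) and 26 fell (2.29%, against 5.59 percent of all). Their median difference was 0.03, where that of all genes was −0.04. With CPM rescaled by TMM factors (trimmed mean of M values) the median of all genes moved to 0.05 and the share of rises among all calls from 40.9% to 55.6%, and the nearby genes gave 115 rises and 21 falls. The tilt was stronger at starts. Of 559 genes with a shared site within 1 kb of a start 51 rose (9.12%) and 7 fell (1.25%), while of 575 others within 20 kb 33 rose and 19 fell. At starts with pituitary-only peaks 91 of 1259 genes rose and 55 fell, and at starts with cortex-only peaks 43 of 1437 rose and 69 fell. Of 81 genes whose site at the start had a DR4, 12 rose and 2 fell, and of 478 without one 39 rose and 5 fell. The genes within 20 kb also included 61 with a separate TRβ peak in T3-regulated chromatin within 20 kb, of which 18 rose and 1 fell. Among the other 1073, 66 rose (6.15%) and 25 fell (2.33%).

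Of the genes with a site at the start, *Hr*, the gene of the corepressor and histone demethylase Hairless, rose most. The site over its start held 154 pituitary reads against 40 in the control, and a second, 2469 bp upstream, 69 against 5. *Hr* was at 28.1, 29.2, 20.6 and 20.7 CPM in hypothyroid and 199.5, 206, 125 and 193 CPM in hyperthyroid wild type. In *Thrb*-KO it was at 48.1, 59.6, 56.5, 62.8 and 33.3 CPM and at 257, 248, 229.8, 206 and 228 CPM. The groups did not overlap in either genotype. *Hr* rose by 2.82 ± 0.19 (adjusted p = 3.21e-09) in wild type and by 2.17 ± 0.17 (adjusted p = 2.48e-07) in *Thrb*-KO. The difference between the genotypes was −0.64 ± 0.25 (adjusted p = 0.185), and was called under 3 alternatives. These were leaving out hyperthyroid wild-type replicate 3, the low library (−0.81, adjusted p = 0.0314), or hypothyroid *Thrb*-KO replicate 5 (−0.79, adjusted p = 0.0376), and DESeq2 on the recovered reads (−0.75, adjusted p = 0.025). The hypothyroid *Thrb*-KO level stood 1.03 ± 0.18 above the hypothyroid wild-type level (adjusted p = 0.000925).

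*Bcl3*, the gene of a nuclear IκB protein, behaved otherwise. It was at 2.40, 2.27, 2.11 and 2.21 CPM and at 12.8, 12.0, 11.4 and 12.1 CPM in wild type, with every hyperthyroid library above every hypothyroid one. In *Thrb*-KO the groups overlapped, at 4.13, 3.96, 2.39, 2.56 and 3.45 CPM and at 5.38, 5.09, 4.38, 3.12 and 5.55 CPM. It rose by 2.01 ± 0.15 (adjusted p = 1.12e-08) in wild type, and the *Thrb*-KO difference was 0.41 ± 0.13 (adjusted p = 0.169). The site, 102 bp from a start, held 17 reads and 15 in the cortex, and *Bcl3* also had a TRβ peak in T3-regulated chromatin within 20 kb.
*Enpp2*, which encodes the lysophospholipase autotaxin, had 11 reads over its start in each tissue. It was at 26.3, 29.1, 25.9 and 30.5 CPM and at 81.4, 131, 100.2 and 156 CPM in wild type, a rise of 1.99 ± 0.16 (adjusted p = 3.53e-08). Its *Thrb*-KO values were 37.7, 37.8, 48.3, 52.7 and 38.1 CPM in hypothyroid mice and 58.3, 62.5, 62.3, 72.0 and 65.8 CPM in hyperthyroid mice. These groups did not overlap, and the difference of 0.58 ± 0.14 (adjusted p = 0.0391) missed the fold limit, which it passed under 7 of 27 alternatives, among them without hypothyroid *Thrb*-KO replicate 3 (0.63) or 4 (0.66).

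*Gadd45a*, a stress-induced gene of growth arrest, had a site with 96 and 27 reads over its start. It was at 12.8, 14.8, 13.0 and 19.6 CPM and at 43.8, 37.1, 45.5 and 38.5 CPM in wild type, and every hyperthyroid library stood above the hypothyroid ones. It rose by 1.41 ± 0.17 (adjusted p = 6.18e-06), and in *Thrb*-KO the difference was 0.48 ± 0.15 (adjusted p = 0.161). *Trim46*, which encodes a protein of the axon initial segment, rose from 23.4 to 32.0 CPM to 55.2 to 87.9 CPM (1.39 ± 0.13, adjusted p = 2.21e-07), with 98 and 18 reads at its start. *Tmem20*, a transmembrane protein gene with 75 and 77 reads, rose from 7.58 to 12.2 CPM to 17.3 to 36.0 CPM (1.32 ± 0.20, adjusted p = 9.42e-05). *Zfp386*, a zinc finger gene with 129 and 77 reads, rose from 19.7 to 21.5 CPM to 34.7 to 63.6 CPM (1.31 ± 0.16, adjusted p = 8.47e-06). *Flywch2*, with 111 and 63 reads, rose from 1.63 to 3.73 CPM to 5.74 to 16.3 CPM (1.52 ± 0.25, adjusted p = 0.000211). Its groups did not overlap in *Thrb*-KO either, and the *Thrb*-KO difference of 0.72 ± 0.22 had an adjusted p of 0.153, which became 0.00681 with the replicate number as a block. The *Flywch2* interaction of −0.79 moved from an adjusted p of 0.246 to 0.0252 with that block. Without hyperthyroid wild-type replicate 3 the *Flywch2* response in *Thrb*-KO was called too (adjusted p = 0.0349), as it was with replicates 3 to 5 only (adjusted p = 0.0235), and the interaction was called with replicates 1 and 2 only (adjusted p = 0.00892).

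*Chd3* and *Neat1* were chosen after their values were seen. *Chd3*, an ATPase gene of the NuRD complex, had its site 170 bp from a start, with 123 and 64 reads. It was at 83.0, 82.8, 66.6 and 75.4 CPM and at 159, 168, 141 and 149 CPM in wild type, a rise of 1.00 ± 0.09 (adjusted p = 2.56e-07). In *Thrb*-KO it was at 103 to 126 and 148 to 185 CPM without overlap, a difference of 0.51 ± 0.08 (adjusted p = 0.00117) under the fold limit. The long non-coding RNA *Neat1*, with 51 and 78 reads 123 bp from its start, rose from 77.5 to 102 CPM to 118 to 258 CPM in wild type (0.89 ± 0.18, adjusted p = 0.00113). In *Thrb*-KO it was at 72.4 to 84.1 and 104 to 125 CPM, also without overlap (0.55 ± 0.16, adjusted p = 0.114).

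The genes at the sites with the most reads responded variously. *Dot1l* was at 57.6, 57.0, 39.4 and 37.7 CPM and at 90.3, 82.7, 36.7 and 63.9 CPM in wild type, which overlap, and its difference was 0.45 ± 0.21 (adjusted p = 0.159). *Nr1d2* at 77.0 to 95.8 and 50.4 to 146 CPM (adjusted p = 0.525), *Eef2* at 1162 to 1451 and 1039.5 to 1453 CPM (0.565) and *Kdm6b* at 66.9 to 102 and 97.0 to 119 CPM (0.052) were not called either. *Suv420h2* rose in wild type, from 12.5 to 16.5 CPM to 23.3 to 39.4 CPM (0.93 ± 0.16, adjusted p = 0.000326), as did *Apln*, from 12.8 to 21.7 CPM to 25.5 to 35.0 CPM (0.81 ± 0.14, adjusted p = 0.000308). *Ky*, whose site had more reads in the cortex, was at 8.63 to 16.6 and 16.3 to 23.0 CPM and rose by 0.68 ± 0.16 (adjusted p = 0.00497), with overlapping groups.

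With a site at the start, 7 genes fell. *Matk*, which encodes a kinase that acts on Src family kinases, was at 9.02, 8.07, 11.4 and 8.85 CPM and at 4.34, 2.97, 3.65 and 5.08 CPM and fell by 1.05 ± 0.13 (adjusted p = 8.08e-06). *Edem2*, of the endoplasmic reticulum degradation pathway, was at 40.0, 36.6, 52.2 and 46.3 CPM and at 22.2, 18.1, 20.4 and 25.9 CPM and fell by 0.98 ± 0.12 (adjusted p = 4.70e-06). In *Thrb*-KO these genes were at 7.31 to 9.37 and 7.03 to 9.18 CPM, and at 24.7 to 29.3 and 21.1 to 25.5 CPM, with overlap in each case. The hypothyroid level of *Edem2* was 0.71 lower in *Thrb*-KO than in wild type (−0.71 ± 0.11, adjusted p = 0.000406). *Chn1*, a Rac GTPase-activating protein gene (−0.81), *Usp35*, a deubiquitinase gene (−0.78), *Gnaq*, the Gαq gene (−0.74), *Arhgap26*, a GTPase-activating protein gene (−0.68) and *Cdk5r1*, the gene of the Cdk5 activator p35 (−0.61) made up the 7, with adjusted p of 1.87e-07 to 0.00307. *Arhgap26* lost its call without hyperthyroid wild-type replicate 3 (−0.54). *Cdk5r1* lost it without that library (−0.50), without hypothyroid replicate 1 (−0.51) or 2 (−0.58), and under TMM scaling (−0.52), and *Gnaq* with replicates 1 and 2 only (−0.51).

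The next genes had a site within 20 kb but none within 1 kb of their own starts. Among them, the largest rises of wild type were those of *Fndc5*, *Cdc42ep2* and *Foxo6*. The *Cdc42ep2* site covered the start of another gene, and the *Foxo6* site given here lay 455 bp from such a start. *Fndc5*, the gene of the irisin precursor, had an intronic site with 16 and 14 reads. It was at 4.68, 3.94, 3.76 and 3.95 CPM and at 24.1, 25.4, 26.4 and 30.9 CPM in wild type, a rise of 2.44 ± 0.11 (adjusted p = 1.79e-11). In *Thrb*-KO it was at 5.43, 5.56, 4.74, 5.75 and 5.05 CPM and at 6.22, 5.93, 8.13, 7.09 and 7.97 CPM, which do not overlap (0.35 ± 0.09, adjusted p = 0.0802).
*Cdc42ep2*, an effector of the GTPase Cdc42, had a site 4461 bp from its body with 59 and 58 reads. It was at 3.82, 3.44, 3.95 and 3.73 CPM and at 30.7, 26.8, 16.9 and 26.4 CPM in wild type, a rise of 2.44 ± 0.13 (adjusted p = 3.22e-10), and at 3.04 to 3.83 and 2.55 to 3.24 CPM in *Thrb*-KO, which overlap.
*Foxo6*, a forkhead factor gene with 24 and 16 reads 3197 bp from its body, was at 7.73, 7.99, 5.62 and 4.02 CPM and at 40.6, 33.0, 26.6 and 37.3 CPM in wild type, a rise of 2.29 ± 0.16 (adjusted p = 8.95e-09). It rose in *Thrb*-KO as well, from 8.71 to 11.0 CPM to 19.9 to 25.5 CPM (1.12 ± 0.15, adjusted p = 0.000135). *Foxo6* and *Foxred2* also had a TRβ peak in T3-regulated chromatin within 20 kb. *Lgi3*, a secreted leucine-rich repeat protein gene, had 2 sites within 20 kb, among them the one over the *Hr* start, 13321 bp away. *Lgi3* rose by 1.88 in wild type, *Foxred2*, an oxidoreductase gene, by 1.52, and *Acsl6*, an acyl-CoA synthetase gene with an intronic site, by 1.50. The adjusted p of these rises was 2.11e-09 to 6.01e-07. None of these 3 was called in *Thrb*-KO, at differences of 0.03, 0.22 and 0.10.

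Among genes without a site within 1 kb of their own starts, the largest falls were those of *Ddah1*, *Cd63* and *Tmem158*. The *Cd63* site lay 10029 bp from the *Cd63* body and covered the start of another gene. *Ddah1*, which encodes an enzyme that degrades asymmetric dimethylarginine, had an intronic site with 32 and 13 reads. It was at 65.0, 68.6, 54.5 and 57.6 CPM and at 27.1, 24.9, 21.3 and 18.2 CPM in wild type and fell by 1.39 ± 0.11 (adjusted p = 3.20e-08), and in *Thrb*-KO it was at 54.2, 55.1, 54.0, 57.7 and 52.2 CPM and at 44.4, 47.1, 37.2, 44.5 and 39.3 CPM. The *Thrb*-KO groups did not overlap either, with a difference of −0.36 ± 0.10 (adjusted p = 0.0829). *Cd63*, a tetraspanin gene of late endosomes, fell by 1.37 and *Tmem158* by 1.35 in wild type, with adjusted p of 9.93e-06 and 1.31e-06. In hypothyroid *Thrb*-KO both were lower than in hypothyroid wild type, by −0.95 and −0.93. *Atp1b2*, a sodium pump subunit gene, fell by 1.29, *Rhof*, a small GTPase gene, by 1.14 and *Thbs3*, a thrombospondin gene, by 0.97. The adjusted p of these falls was 1.86e-07 to 0.000278. The only site within 20 kb of *Thbs3* was the one over the *Trim46* start, 19142 bp from the *Thbs3* body, and *Trim46* rose. *Atp1b2* was at 265 to 308 and 175 to 203 CPM in *Thrb*-KO, a difference of −0.58 (adjusted p = 0.00318) just under the fold limit, which it passed under 6 of 27 alternatives (−0.59 to −0.61).

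**Figure D4:**
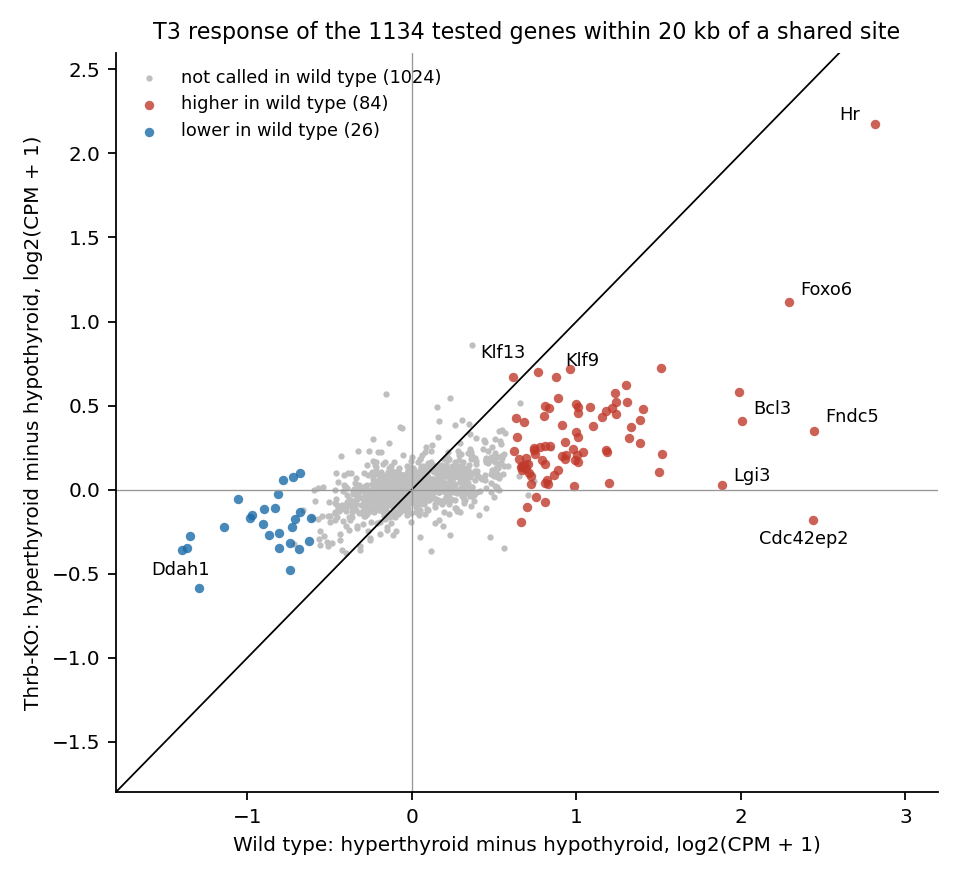
T3 response of the 1134 tested genes within 20 kb of a shared site, as hyperthyroid minus hypothyroid log2(CPM + 1) in wild type (x axis) and *Thrb*-KO (y axis), with genes called higher (84) or lower (26) in wild type in colour and the diagonal marking equal responses. *Hr*, *Foxo6*, *Klf9* and *Klf13* lie near or toward the diagonal, while *Fndc5*, *Cdc42ep2* and *Lgi3* lie near 0 on the y axis.

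Without TRβ few genes responded, near shared sites as over all genes. In *Thrb*-KO 8 of 1134 rose (0.705%, against 0.411 percent of all genes tested) and none fell in limma (against 0.601 percent of all). At an unadjusted p under 0.05, 72 stood higher and 24 lower, and over all 13145 genes 1077 differed in either direction. edgeR and DESeq2 on the recovered reads each called 11 higher and none lower. Over all genes edgeR called 67 higher and 92 lower, and DESeq2 80 and 98. The 8 were *Hr* (2.17), *Foxo6* (1.12), *Lrrc10b* (0.86), *Trp53inp2* (0.72), *Klf13* (0.70), *Klf9* (0.67), *Dbp* (0.67) and *Iglon5* (0.62). All but *Lrrc10b* were also called higher in wild type. No library enters both differences, but their p-values come from 1 model that estimates the spread of each gene over all 18 libraries. *Lrrc10b*, a leucine-rich repeat gene, was at 40.6 to 47.7 and 47.2 to 61.7 CPM in wild type. That difference of 0.37 (limma, adjusted p = 0.0225) was under the fold limit. In *Thrb*-KO *Lrrc10b* was at 37.1 to 47.9 and 64.0 to 90.4 CPM, where its groups did not overlap. The 84 genes that rose in wild type were chosen by that response, with a median of 0.93. Their median in *Thrb*-KO was 0.25, with the sign kept by 79 genes and a smaller size in 83. The 509 genes of all genes that rose had medians of 0.88 and 0.21, and 449 kept the sign. Of the 26 that fell (median −0.81), none was called in *Thrb*-KO, where the median was −0.21 and 23 kept the sign, against −0.81, −0.24 and 675 of 735 over all genes.

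The difference between the 2 responses was tested as an interaction, which shares its libraries with both. Near shared sites the *Thrb*-KO response was lower in 37 genes (3.26%, against 1.78 percent of all genes tested) and higher in 14 (1.23%, against 2.48 percent of all). Under TMM scaling the share of higher calls over all genes moved from 58.2% to 43.8%. At starts 18 were lower and 3 higher. The largest interactions were those of *Cdc42ep2* (−2.61 ± 0.18) and *Fndc5* (−2.09 ± 0.14), each with an adjusted p of 3.65e-08, *Lgi3* (−1.86 ± 0.25, 0.000136), *Bcl3* (−1.60 ± 0.20, 4.97e-05) and *Enpp2* (−1.41 ± 0.21, 0.000378). *Sox12*, an Sry-related factor gene (−1.16, adjusted p = 0.000184), *Ppard*, the PPARδ gene (−0.96, 0.000425), *Nfic*, a nuclear factor I gene (−0.73, 0.0121) and *Jarid2*, a gene of Polycomb complex 2 (−0.80, 0.0235) were also among the lower ones. These 4 were picked after their values were seen. For *Klf9* (−0.21, adjusted p = 0.769), *Klf13* (−0.06, 0.973) and *Dbp* (0.05, 0.982) no difference between the genotypes was detected.

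Between genotypes, hypothyroid *Thrb*-KO stood above hypothyroid wild type at 16 of the nearby genes (1.41%, against 1.01 percent of all genes tested) and below it at 8 (0.705%, against 2.01 percent of all). *Hr* led the higher ones together with *Arhgap6* (1.09), and *Trim46* (0.70, adjusted p = 0.000936), *Chd3* (0.59, 0.000231), *Suv420h2* (0.62, 0.017), *Foxo6* (0.59, 0.0251) and *Enpp2* (0.59, 0.0207) were among them. The lower ones were led by *Cd63* and *Tmem158*, given above. In hyperthyroid mice *Thrb*-KO was higher at 14 genes (1.23%, against 2.54 percent of all) and lower at 29 (2.56%, against 2.32 percent of all), and under TMM scaling the share of higher calls over all genes moved from 52.3% to 38.1%. The lowest were *Cdc42ep2* (−2.72), *Lgi3* (−2.19) and *Fndc5* (−1.78), and *Atp1b2* (1.14) and *Gpr155* (1.19) were the highest.

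Lists of genes by function placed the sites and their responses. Over all 13145 genes tested 8.63% had a shared site within 20 kb, 3.87 percent rose and 5.59 percent fell in wild type, and 0.411 percent rose in *Thrb*-KO. Of the tested T3 targets described in several tissues 6 of 12 had a shared site within 20 kb (*Klf9*, *Hr*, *Bcl3*, *Nr1d1*, *Atp2a2* and *Dbp*), and 4 of the 6 rose in wild type and 3 in *Thrb*-KO. Over the 12 tested, 5 rose and 1 fell in wild type and 3 rose in *Thrb*-KO. *Klf9* was at 63.2, 72.5, 60.5 and 66.7 CPM and at 133, 143, 90.3 and 126 CPM in wild type, and at 84.6, 90.5, 92.9, 99.9 and 64.8 CPM and 140.4, 140.4, 145, 138 and 122 CPM in *Thrb*-KO. Its groups did not overlap in either genotype, with rises of 0.88 ± 0.14 (adjusted p = 9.95e-05) and 0.67 ± 0.12 (adjusted p = 0.00338). The *Thrb*-KO rise fell under the fold limit without hypothyroid *Thrb*-KO replicate 5 (0.57), and was not called with replicates 3 to 5 only. *Klf9* also had a TRβ peak in T3-regulated chromatin within 20 kb.
Of 20 tested Krüppel-like and Sp factor genes 4 were near a site (*Klf3*, *Klf9*, *Klf10* and *Klf13*). Over the 20, 2 rose and 1 fell in wild type. *Klf13*, with 3 sites and also a TRβ peak in T3-regulated chromatin within 20 kb, was at 55.7, 60.9, 42.0 and 50.7 CPM and at 89.3, 89.4, 91.7 and 85.2 CPM in wild type, and at 57.6, 69.5, 53.6, 57.4 and 45.9 CPM and 102, 98.1, 98.4, 88.2 and 76.7 CPM in *Thrb*-KO. Without overlap in either, it rose by 0.77 ± 0.12 (adjusted p = 0.000162) and 0.70 ± 0.11 (adjusted p = 0.000959).

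Of 21 tested circadian clock genes 11 were near a site, among them *Arntl*, *Npas2*, *Per1*, *Per3*, *Nr1d1*, *Nr1d2*, *Tef*, *Bhlhe41* and *Rora*, and 2 of them rose, with a median of 0.05 over the 11. Over the 21 tested, 3 rose and 2 fell, with a median of −0.07. *Dbp*, an output factor of the clock with 73 and 60 reads at a start, was at 35.7, 28.4, 38.7 and 29.1 CPM and at 50.4, 57.2, 40.1 and 57.0 CPM in wild type, and at 37.2, 37.4, 31.4, 30.4 and 33.2 CPM and 59.0, 51.7, 61.5, 47.0 and 54.0 CPM in *Thrb*-KO. The groups did not overlap in either, and it rose by 0.62 ± 0.13 (adjusted p = 0.00145) and 0.67 ± 0.11 (adjusted p = 0.00173). The wild-type rise of *Dbp* fell under the fold limit without hypothyroid replicate 2 (0.55) or 4 (0.56) and without hyperthyroid replicate 2 (0.56) or 4 (0.56), and with replicates 3 to 5 only (0.50), and the *Thrb*-KO rise with replicates 1 and 2 only (0.55). *Bhlhe40*, the clock repressor DEC1, with 44 and 97 reads 623 bp from its start, was at 31.8, 36.7, 38.5 and 42.9 CPM and at 59.9, 68.4, 45.7 and 67.7 CPM in wild type. It rose by 0.67 ± 0.11 (adjusted p = 0.000303) without overlap, and not with replicates 3 to 5 only (0.44). In *Thrb*-KO it was at 38.4 to 43.4 and 33.4 to 39.7 CPM, a difference of −0.19 ± 0.10 (adjusted p = 0.758).

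Of 23 tested immediate early and stress-induced genes 7 were near a site (*Jun*, *Egr1*, *Ier2*, *Ier5*, *Dusp1*, *Klf10* and *Gadd45a*). *Gadd45a* and *Ier5* rose, *Ier5* from 7.14 to 8.34 CPM to 15.5 to 18.6 CPM (0.99 ± 0.12, adjusted p = 7.47e-06), and in *Thrb*-KO it was at 6.02 to 7.49 and 6.63 to 10.9 CPM. The median of the 7 was 0.42, against 0.23 over the list, in which these 2 rises were the only calls in wild type.
Of 18 genes of thyroid hormone receptors and coregulators 6 were near a site, among them *Thra*, *Rxra* and *Ncoa1*, with a median of 0.31. None was called with T3 by limma in wild type, 4 had an unadjusted p under 0.05, and edgeR and DESeq2 each called 2 of them higher, among them *Ncoa1*. Of 37 chromatin modifier genes 7 were near a site (*Dot1l*, *Mll5*, *Kdm2a*, *Kdm2b*, *Kdm5b*, *Kdm6b* and *Hdac5*). None of these was called by limma, edgeR or DESeq2, and 2 had an unadjusted p under 0.05. Of 17 tested pituitary hormone and lineage genes none had a shared site within 20 kb. Of 12 cortical neuron genes 3 did (*Snap25*, *Gria2* and *Dlg4*), with a median of −0.14. None was called by limma in wild type. All had an unadjusted p under 0.05, 1 of them higher and 2 lower, and *Gria2* was called higher by edgeR and DESeq2. Over the 12 tested, 3 rose and 2 fell in wild type. Sites also lay near 6 of 56 ribosomal protein, 7 of 80 oxidative phosphorylation and 4 of 44 splicing factor genes. None of these was called in wild type by the 3 tools, and only 1, an oxidative phosphorylation gene, had an unadjusted p under 0.05.

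**Figure D5:**
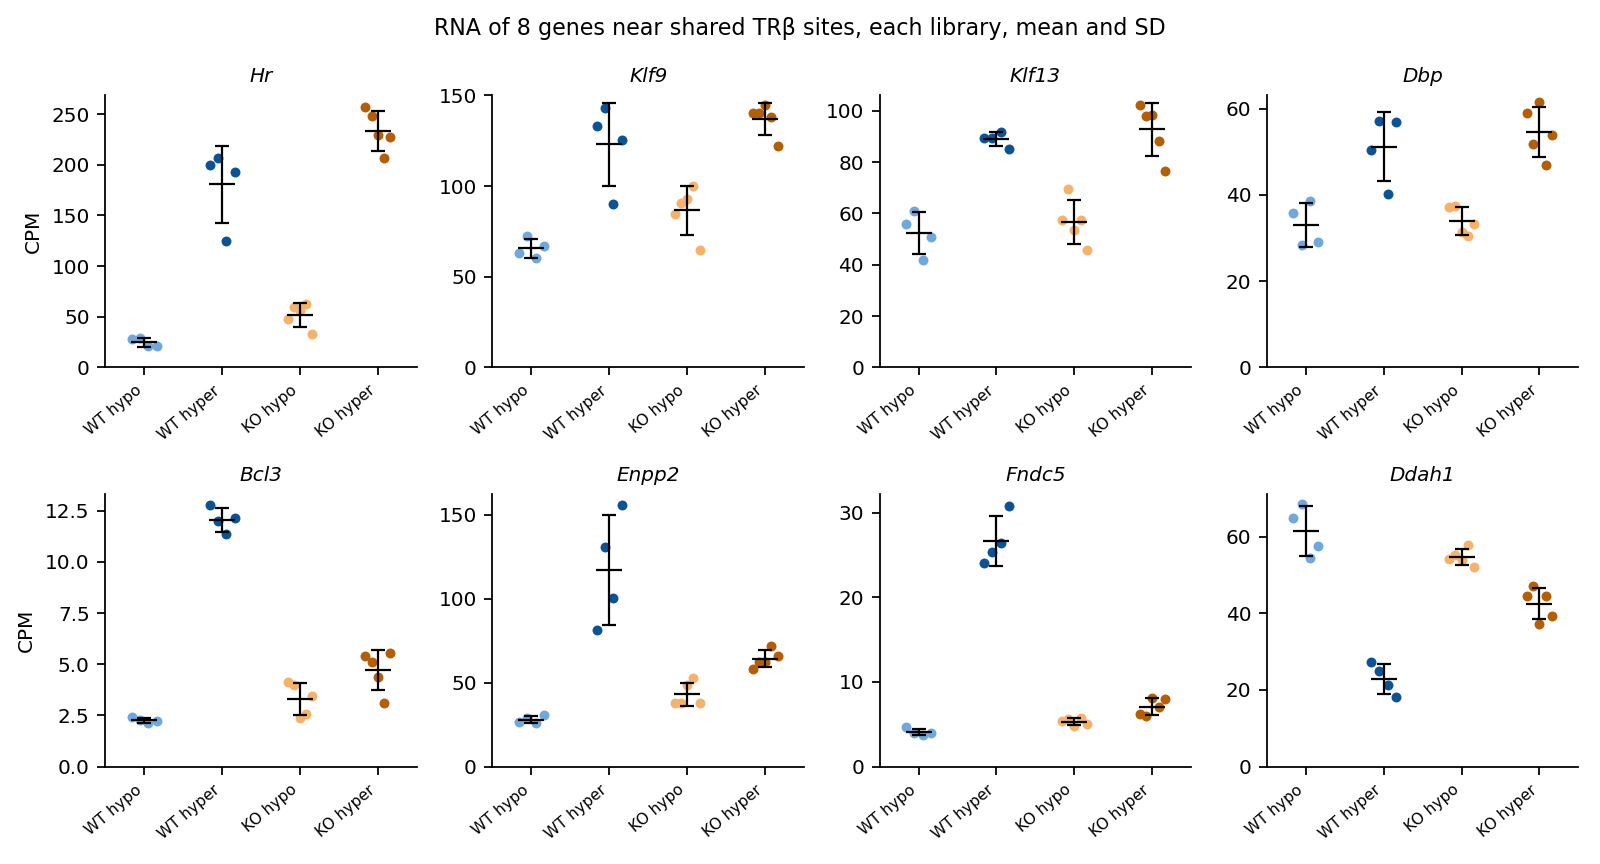
CPM (y axes, from 0) of 8 genes near shared sites in every RNA library, grouped on the x axes as hypothyroid and hyperthyroid wild type (WT, 4 each) and *Thrb*-KO (KO, 5 each), with the mean and SD in black. In the upper row the hyperthyroid groups stand above the hypothyroid ones in both genotypes, and in the lower row the difference is smaller in *Thrb*-KO, as for *Bcl3* (2.11 to 2.40 against 11.4 to 12.8 CPM in wild type).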

How the data were processed

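The authors called TRβ peaks with SICER 1.1 on merged HAB;BirA against merged BirA libraries at a false discovery rate of 1e-06, and deposited for each peak the read counts of both, the fold (a ratio to the control scaled by library size) and the false discovery rate as a p-value of its kind. Coordinates are mm9. The T3-regulated ATAC list was used for its positions only; the deposited adjusted p-value of that list comes from the authors' own comparison and was not used. RNA values were deposited by the authors as CPM, reads of a transcript scaled to library size, for 29082 transcripts, and the transcript with the highest mean CPM stood for each of 22835 genes. The submitters' processing notes name Bowtie2, STAR, MACS2 and edgeR besides SICER, and the methods name BBMap with RefSeq mm9 for RNA. The CPM steps gave whole reads for 100.0% of values within 0.05 of a whole number. Strand was not used in the count, so that antisense and overlapping genes cannot be told apart. No column of samples outside the series was found (0).

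Genes were placed by the NCBIM37 annotation, which matched 21822 of 22835 symbols. Genes above 1 CPM in all 18 libraries were tested with limma 3.58.1 on log2(CPM + 1) in R 4.3.3, with all groups in one model without a block and Benjamini-Hochberg adjustment over all genes, and called at an adjusted p under 0.05 and 1.5-fold. edgeR 4.0.16 and DESeq2 1.42.0 on the recovered reads, TMM scaling, other filters, distances and mismatches, and leaving out each library were alternatives. The model was tested on simulated data. Sites were handled in Python 3.11.15 with pandas 2.3.3, numpy 2.4.6, scipy 1.17.1 and pysam 0.24.0. Same-numbered libraries of the groups deviated together in all 25 pairs (r of 0.130 to 0.815), and so did other numbers within replicates 1 and 2 or 3 to 5 (0.271 to 0.755, 36 pairs), while numbers across these sets did not (−0.779 to −0.243, 60 pairs). The numbers come from the sample titles, and nothing states that they mark a shared day or litter. The p-values measure the spread between pools of 3 animals within the groups. Without a block, this spread includes the difference between replicates 1 and 2 and replicates 3 to 5.

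The sites, gene lists and markers were chosen with earlier results of these data known. The text names the 10 sites with the largest smaller value of the 2 read counts, the 5 with the largest smaller fold, *Dot1l*, *Thrb* and *Thra*. Among called genes with non-overlapping wild-type groups, it names the 8 largest rises and 8 largest falls with a site within 1 kb of a start (7 falls met this). By the same rule it names the 6 of each with a site within 20 kb but none within 1 kb of their own starts. The 5 largest interactions, and every listed gene near a site that was called in wild type, are named too. The sites of *Ky* and *Mir7b*, the sequences of *Chd3* and 2410080I02Rik, *Neat1*, and further genes given by symbol and value alone were chosen after their values were seen. Some genes and sequences are not reported here.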

Additional observations from a re-analysis of the deposited data

Results flagged for a closer look

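In 3 of 184 groups of libraries 1 library stood apart from the others, where chance gives about 1 in 20. *Hr* was at 125 CPM in hyperthyroid wild-type replicate 3, against 193 to 206 CPM in the other 3. *Matk* was at 9.18 CPM in hyperthyroid *Thrb*-KO replicate 5, against 7.03 to 7.61 CPM, and *Bhlhe40* at 39.7 CPM in hyperthyroid *Thrb*-KO replicate 3, against 33.4 to 35.1 CPM.

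The T3 response of 24 named genes differed between the genotypes in the interaction term of limma. Each value is the *Thrb*-KO response minus the wild-type response on the log2(CPM + 1) scale. It was negative for *Cdc42ep2* (−2.61), *Fndc5* (−2.09), *Lgi3* (−1.86), *Bcl3* (−1.60), *Enpp2* (−1.41), *Acsl6* (−1.40), *Foxred2* (−1.31), *Foxo6* (−1.17), *Tmem20* (−1.01), *Trim46* (−0.97), *Gadd45a* (−0.925), *Bhlhe40* (−0.86), *Zfp386* (−0.78) and *Ier5* (−0.65). It was positive for *Thrb* (1.26), *Tmem158* (1.07), *Ddah1* (1.04), *Cd63* (1.02), *Matk* (1.00), *Rhof* (0.92), *Usp35* (0.84), *Thbs3* (0.82), *Edem2* (0.82) and *Atp1b2* (0.71), whose wild-type responses were falls.

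Of these interactions 6 lost their call under at least 1 of 27 alternatives. *Zfp386* lost it under 16, among them without each of 14 libraries in turn (−0.80 to −0.70, adjusted p of 0.0594 to 0.0883). *Thbs3* lost it under 11, without each hypothyroid wild-type replicate, hyperthyroid wild-type replicate 1 or 2, hypothyroid *Thrb*-KO replicate 1 or 2, or hyperthyroid *Thrb*-KO replicate 3, 4 or 5 (0.73 to 0.83, adjusted p of 0.0546 to 0.0765). *Tmem20* lost it under 9, without hypothyroid wild-type replicate 3 or 4, hyperthyroid wild-type replicate 1 or 2, hypothyroid *Thrb*-KO replicate 1 or 2, or hyperthyroid *Thrb*-KO replicate 3, 4 or 5 (−0.99 to −0.85, adjusted p of 0.0616 to 0.0824). *Ier5* lost it without hypothyroid wild-type replicate 3 (−0.62), without hyperthyroid *Thrb*-KO replicate 1 (−0.56), and with replicates 3 to 5 only (−0.65, adjusted p = 0.0626). *Gadd45a* (−0.79, adjusted p = 0.224) and *Bhlhe40* (−0.58, adjusted p = 0.172) lost it with replicates 3 to 5 only.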

How the results depend on the processing

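No called wild-type response, *Thrb*-KO response or interaction of the 34 genes named by rule reversed its direction under the alternatives run. Single genes were not followed in the genotype comparisons. Their balance over all nearby genes did move. In hyperthyroid mice it went from 14 higher and 29 lower to 77 higher and 50 lower with no fold limit. In hypothyroid mice it went from 16 higher and 8 lower to 19 and 19 with sites within 50 kb. With the replicate number as a block, 115 nearby genes were called in wild type, 9 in *Thrb*-KO, 69 in the interaction, 32 between genotypes in hypothyroid and 54 in hyperthyroid mice, against 110, 8, 51, 24 and 43 without it. For the 34 genes named by rule, in the wild-type and *Thrb*-KO responses and the interaction, the block changed no call other than those of *Flywch2*. Leaving out 1 library gave 104 to 136, 7 to 12, 44 to 75, 17 to 27 and 39 to 54, and the 136, with 111 higher, came without hyperthyroid wild-type replicate 3. With no fold limit the counts were 236, 23, 68, 75 and 127, and with sites within 1 kb of a start 58, 4, 21, 11 and 19. With sites within 50 kb *Thrb*-KO gave 14 and the hypothyroid genotype comparison 38. With replicates 1 and 2 only *Thrb*-KO gave 13, the interaction 83 and the hypothyroid comparison 15, and with replicates 3 to 5 only *Thrb*-KO gave 13, the hypothyroid comparison 48 and the hyperthyroid comparison 82. DESeq2 gave 67 in the hyperthyroid comparison. Fewer sites were left when the overlap had to span 50% of both peaks (498), at a false discovery rate of 1e-10 (353) and with at most 3 control reads (324). Their share at starts was 63.5% with the wider overlap and 55.9% with few control reads, and 62.7% of the 810 lay within 500 bp of a start. A DR4 was in 1.73% of sites with at most 1 mismatch and in 52.8% with at most 3, where 30.2% of regions 10 kb away also had one. The cause of these moves was not tested, apart from the smaller or larger sets that the filters and distances make.

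Peaks of merged libraries give no spread between replicates, and peaks of 10 reads are near the lowest called. The ATAC list covers only nuclei marked through *Thrb*, while binding was measured in whole tissue. Overlap at 1 bp does not show the same bound base. Distance to a gene does not show that a site acts on it, and genes that share a site are not independent.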
